A study of Mus musculus with 28 samples.

Results

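The genes of cholesterol synthesis and of its control by SREBP were followed in whole AB1-HA tumors treated with chemotherapy, immune checkpoint blockade (ICB) or both. The set holds 34 of the 55341 gene rows of the count matrices, named by symbol for their place in the pathway. It has 20 enzymes of sterol synthesis, 5 regulators of SREBP, 1 sterol carrier, 5 enzymes of fatty acid synthesis and 3 genes of sterol efflux and receptor turnover. No cutoff on a value selected them, but the set was put together with earlier treatment results of these tumors known, so the counts and values over the set are a description and no test of the set as a whole is given. All 34 genes passed the filter on low counts in every fit.

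AB1-HA is a mouse mesothelioma line that carries the influenza hemagglutinin as a marker antigen, and 1 such line is the only model here. Cells were injected under the skin of BALB/c.AusBP mice, female and 8 to 10 weeks old. Treatment began at a tumor size of 20 to 25 mm2. PBS was given to 4 mice, 5-FU at 75 mg/kg to 5, cisplatin at 6 mg/kg to 4, and ICB (100 µg each of anti-CTLA-4 and anti-PD-L1, with 2 more doses of anti-PD-L1 2 days apart) to 5. Another 5 received 5-FU+ICB and 5 cisplatin+ICB, at the same doses. Each tumor came from a different mouse and was taken at day 7, and RNA of the whole tumor was sequenced. A whole tumor holds cancer cells, leukocytes, vessels and neighbouring tissue, so fewer cells of a type and less RNA per cell cannot be told apart. Of the mesothelial markers, Msln was present at 311 ± 38.7 CPM in the PBS tumors (SD, n = 4), whereas Wt1 and Krt19 were near 0 (0.11 and 0.20 CPM).

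Total counts per tumor ranged from 23541733 to 33950805. In 3 libraries the RNA stood apart from the rest. An index of transcript length, the median log2 difference from the PBS mean of the genes with the longest transcripts (at least 6909 bases) minus that of the genes with the shortest (at most 1419 bases), was -2.62 in cisplatin+ICB replicate 1 and -1.10 in PBS replicate 2, and between -0.42 and 1.23 in the other 26 tumors. In 5-FU+ICB replicate 5, 16.1% of the counts were mitochondrial, against at most 6.80% in any other tumor. That tumor had Msln at 0.50 CPM, the lowest value of the 28, and the 4 B cell markers summed to 770.0 CPM against at most 103 in any other tumor. The 4 mesothelial markers with counts summed to 111 CPM in it, inside the range of its group. Nearly all of that sum came from markers other than Msln. In replicates 1 to 4 of the group the sums were 37.8, 169, 69.7 and 61.1 CPM, with Msln at 34.4, 167, 67.8 and 53.4 CPM. Without these 3 libraries together, 26 members were called after ICB, 24 after 5-FU and 25 after 5-FU+ICB (34.6%, 11.9% and 27.0% of all genes), beside 24, 24 and 25 with all tumors.

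Cells make cholesterol from acetyl-CoA through mevalonate, farnesyl diphosphate, squalene and lanosterol. The transcription factor SREBP-2, encoded by Srebf2, switches on nearly all enzymes of this route when membrane cholesterol is low. SREBP-1, encoded by Srebf1, acts more on fatty acid synthesis. When sterol is plentiful, INSIG proteins hold SREBP and its escort SCAP in the endoplasmic reticulum, and the oxysterol receptors LXR switch on Abca1, Abcg1 and Mylip, which lower the sterol content of a cell. A loaded macrophage is a textbook case of this second state.

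Promoter sequence was available for 28 of the 34 genes in the RefSeq promoter table (GRCm38), each reaching from 250 bases before to 50 bases after an annotated start. CCAAT, the box bound by NF-Y, which works together with SREBP at sterol genes, was found on either strand in 16 of the 17 sterol synthesis genes matched, or 94.1%. It was present in 41.1% of all 27025 genes of that table. The sterol regulatory element spelled TCACNCCAC was found in 1 gene, Hmgcs1, and in 1.44% of all genes. CACGTG, the E-box, was found in 3 of the 17 sterol synthesis genes and in 8.09% of all genes. The DR4 element bound by LXR, a direct repeat of AGGTCA with 4 bases between, was found in none of the members and in 0.0148% of all genes. These letters were the only ones searched, on both strands, and a match does not show binding. Windows of 7 genes are printed as examples from along the route, chosen among those that lie wholly upstream of the gene in the GENCODE M21 annotation as well. Values per tumor follow for 5 of them, all but Mvk and Sc5d. Capitals mark TCACNCCAC in Hmgcs1 and CCAAT, read as ATTGG on the opposite strand, in the others. Each is given 5′ to 3′ on the strand of the gene.
Hmgcs1: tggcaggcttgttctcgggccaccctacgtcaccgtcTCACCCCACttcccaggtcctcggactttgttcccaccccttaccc
Mvk: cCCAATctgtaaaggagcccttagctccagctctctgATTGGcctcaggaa
Mvd: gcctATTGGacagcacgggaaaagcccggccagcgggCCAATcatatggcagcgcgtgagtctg
Lss: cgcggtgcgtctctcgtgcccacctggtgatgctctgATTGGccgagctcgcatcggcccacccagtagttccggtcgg
Nsdhl: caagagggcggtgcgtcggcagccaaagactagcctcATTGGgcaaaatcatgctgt
Sc5d: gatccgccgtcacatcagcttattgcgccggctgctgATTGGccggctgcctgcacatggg
Insig1: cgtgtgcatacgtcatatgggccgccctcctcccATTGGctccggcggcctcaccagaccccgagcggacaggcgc
The positions, with bases counted back from the annotated start, were chr13:119690177-119690259 (bases -174 to -92, plus strand) for Hmgcs1, chr5:114444218-114444268 (bases -51 to -1, plus strand) for Mvk, chr8:122443423-122443486 (bases -64 to -1, minus strand) for Mvd and chr10:76531506-76531584 (bases -99 to -21, plus strand) for Lss. They were chrX:72918464-72918520 (bases -57 to -1, plus strand) for Nsdhl, chr9:42264301-42264361 (bases -61 to -1, minus strand) for Sc5d and chr5:28071162-28071237 (bases -250 to -175, plus strand) for Insig1.

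Sterol synthesis transcripts were lower in the tumors treated with ICB, with 5-FU or with 5-FU+ICB than in PBS tumors, and the efflux genes were higher. Of the 34 members, 24 passed the test after ICB (3 higher and 21 lower), 24 after 5-FU (3 higher and 21 lower) and 25 after 5-FU+ICB (3 higher and 22 lower). Over all genes tested, 37.8% passed after ICB (19.0% higher, 18.8% lower), 23.0% after 5-FU (9.98% higher, 13.0% lower) and 40.7% after 5-FU+ICB (21.9% higher, 18.7% lower). The comparisons share the same 4 PBS tumors and are not independent of each other. A call required an adjusted p-value under 0.05 over all genes, Benjamini-Hochberg, from the quasi-likelihood test of edgeR, and an absolute log2 fold change over 0.5. After cisplatin alone, 0 of the 34 genes passed, as did 0% of all genes. After cisplatin+ICB 8 passed (2 higher and 6 lower), beside 6.10% of all genes (4.70% higher, 1.40% lower).

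**Figure D1:**
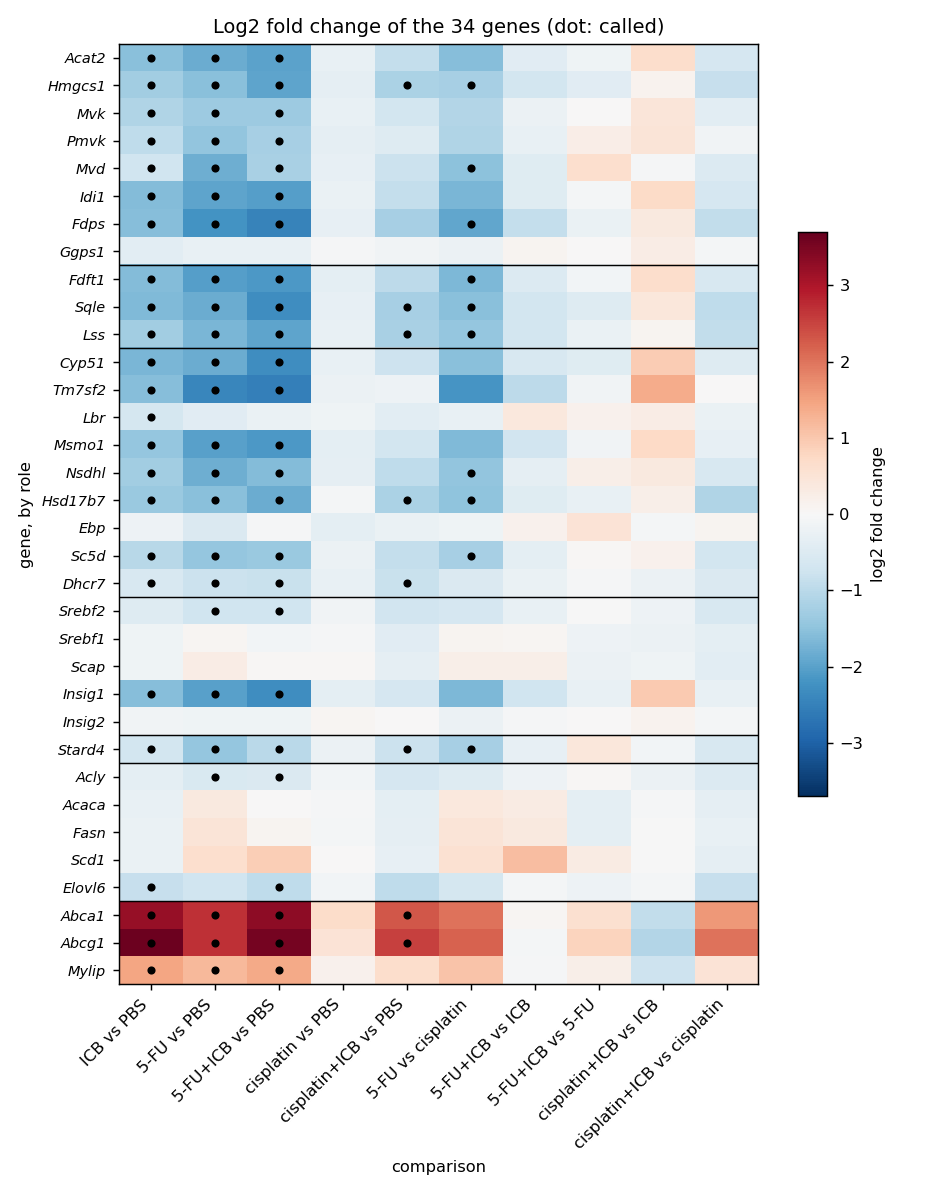
Log2 fold change of each of the 34 genes (rows, grouped by role) in 10 comparisons (columns), blue for lower and red for higher in the group named first; a dot marks a call by edgeR's quasi-likelihood test. The 3 columns at the left are blue through most of the sterol enzymes and red in Abca1, Abcg1 and Mylip, and the cisplatin column holds no dot.

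Most sterol enzymes were lower after each of these 3 treatments. In ICB tumors 18 of the 20 were called lower, with a median log2 fold change of -1.28 over the 20, while the median over all 17916 genes tested was -0.03. After 5-FU the count was 17 of 20 and the median -1.74, and after 5-FU+ICB 17 of 20 and -1.88. The individual tumors of the treated and PBS groups did not overlap for 18 of the 20 enzymes each after ICB and 5-FU, and for 17 after 5-FU+ICB. Among all genes tested, groups without overlap made up 37.4%, 27.0% and 25.5% in these comparisons. Averaged over the 20 enzymes, the level was 6.30 ± 0.16 log2 CPM in PBS tumors (SD, n = 4), 5.07 ± 0.37 with ICB, 4.75 ± 0.20 with 5-FU and 4.68 ± 0.23 with 5-FU+ICB (n = 5 each). CPM are counts relative to the TMM-scaled library size, and a prior count of 2 was added before the logarithm.

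**Figure D2:**
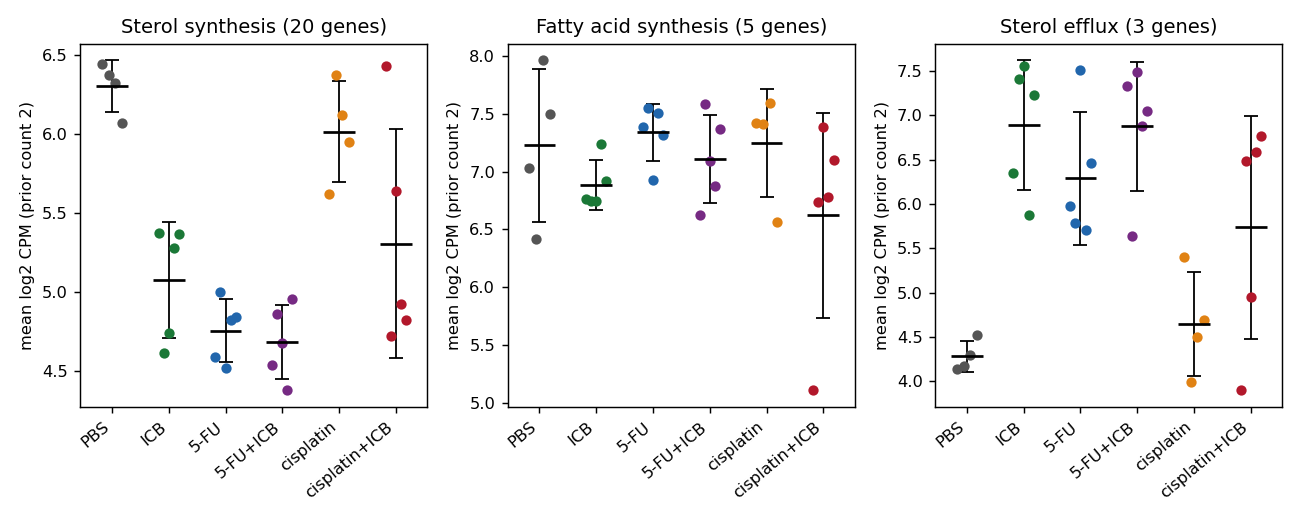
Mean log2 CPM per tumor (points) over the 20 sterol synthesis genes, the 5 fatty acid synthesis genes and the 3 efflux genes in the 6 groups; black lines show the group mean and bars the SD. The sterol synthesis means fall from 6.30 in PBS to between 4.68 and 5.07 in the ICB, 5-FU and 5-FU+ICB groups, the efflux means rise from 4.28 to between 6.29 and 6.89, and the fatty acid means stay between 6.62 and 7.34.

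The first enzymes turn acetyl-CoA into mevalonate and its isoprenoid products. Of these 8 genes, 7 were called lower in each of the 3 comparisons, the exception being Ggps1, which makes geranylgeranyl diphosphate for protein prenylation and not for sterol. Acat2, the cytosolic thiolase of the first step, stood at 90.0, 81.4, 79.5 and 59.9 CPM in the 4 PBS tumors. It stood at 31, 14.2, 17.8, 36.3 and 32.2 with ICB, 22.7, 26.7, 15.3, 23.6 and 20.9 with 5-FU and 14, 28.6, 19.9, 17.6 and 17.8 with 5-FU+ICB. Every tumor of these 3 groups was below the lowest PBS tumor, and the log2 fold changes were -1.55 ± 0.25, -1.83 ± 0.25 and -1.98 ± 0.25 (SE). Hmgcs1, the cytosolic HMG-CoA synthase, was measured at 214, 177, 249 and 181 CPM in PBS tumors. Its values were 109, 54, 64.6, 91.2 and 97.9 with ICB, 50.7, 74.3, 45.6, 74.8 and 102 with 5-FU and 51.4, 56.4, 46.4, 49.7 and 54.6 with 5-FU+ICB. The 5-FU+ICB tumors lay close together, and Hmgcs1 fell by 1.96 on the log2 scale in that group (SE 0.22, adjusted p = 3.44e-05 by edgeR).

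Mvd, the diphosphomevalonate decarboxylase, was called lower after ICB, 5-FU and 5-FU+ICB. Its CPM was 35.9, 32.6, 37 and 28.5 in PBS tumors, 22.6, 23.6, 12.9, 17.8 and 21.9 with ICB, 8.82, 9.17, 9.62, 9.53 and 10.5 with 5-FU and 13.5, 10.6, 12.1, 13.6 and 22.5 with 5-FU+ICB. The 5-FU tumors formed the lowest and tightest group. The log2 fold change was -0.73 ± 0.21 for ICB and -1.80 ± 0.21 for 5-FU, and the difference between these effects was not tested. Idi1, the isomerase that readies isopentenyl diphosphate for chain building, had 151, 169.8, 152 and 112 CPM in PBS tumors. The ICB tumors had 68.1, 21.8, 30.4, 57.2 and 62.6, the 5-FU tumors 31.2, 49.9, 24, 35.5 and 46.6 and the 5-FU+ICB tumors 27.3, 40.2, 27.1, 23.2 and 57.3. All treated tumors were below all PBS tumors. Fdps, which makes farnesyl diphosphate, stood at 356, 237, 315 and 242 CPM in PBS tumors. It stood at 109.6, 45.6, 61.1, 129.7 and 127 with ICB, 53.6, 95.8, 39.1, 60.8 and 59.1 with 5-FU and 35.3, 80.2, 55, 36.3 and 49.8 with 5-FU+ICB. Its log2 fold changes of -1.58 ± 0.31, -2.21 ± 0.31 and -2.47 ± 0.32 were among the largest decreases of the set. Mvk and Pmvk, the kinases that phosphorylate mevalonate in 2 steps, were called lower with log2 fold changes between -1.36 and -1.11 for Mvk and between -1.45 and -0.95 for Pmvk. Ggps1 changed by -0.39 ± 0.14, -0.28 ± 0.14 and -0.28 ± 0.14. After ICB its adjusted p was 0.0373 by edgeR, but the change did not reach the fold limit.

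The next 3 enzymes commit farnesyl diphosphate to sterol, and all 3 were called lower with ICB, 5-FU and 5-FU+ICB. Fdft1, squalene synthase, had 159.6, 150.5, 136 and 109 CPM in PBS tumors. With ICB it had 54.6, 28.2, 32.2, 57 and 52.5, with 5-FU 31.5, 41.4, 26.2, 38.1 and 32.5 and with 5-FU+ICB 24.3, 41.3, 33.4, 24.3 and 35.1. Every treated tumor of these groups was below the lowest PBS tumor, and the log2 fold changes were -1.62 ± 0.22, -2.03 ± 0.22 and -2.12 ± 0.22. Sqle, the squalene epoxidase, a rate-limiting step of the route, had 159.8, 123, 172 and 126 CPM in PBS tumors. It had 58.8, 26.9, 26.5, 58.8 and 60.0 with ICB, 33.8, 52.5, 25.5, 45.3 and 45 with 5-FU and 24.5, 40.3, 30.5, 22.6 and 27 with 5-FU+ICB. Sqle fell by 2.30 on the log2 scale in the 5-FU+ICB group (SE 0.27, adjusted p = 4.08e-05 by edgeR). Lss, which closes the sterol ring system to lanosterol, was at 83.2, 59.3, 95.6 and 73.6 CPM in PBS tumors. The ICB tumors were at 38.6, 20.0, 20.7, 39.8 and 38.6, the 5-FU tumors at 24.5, 31, 14.7, 27.2 and 22.3 and the 5-FU+ICB tumors at 12.4, 30.6, 21.4, 17.5 and 17.5. None of these tumors reached the PBS range.

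The 9 remaining enzymes turn lanosterol into cholesterol, and 8 of them were called lower after ICB and 7 each after 5-FU and 5-FU+ICB. Cyp51, the lanosterol demethylase, had 258, 284, 235 and 195 CPM in PBS tumors. It had 97.3, 38.2, 47.8, 93.3 and 95.8 with ICB, 53.3, 81.7, 49.7, 75 and 81.7 with 5-FU and 41.4, 69.6, 52.7, 36.4 and 47.3 with 5-FU+ICB. The log2 fold changes of Cyp51 were -1.69 ± 0.27, -1.83 ± 0.27 and -2.29 ± 0.27, with no overlap between treated and PBS tumors. Tm7sf2, a sterol reductase, was measured at 21, 26.4, 14.3 and 15.4 CPM in PBS tumors. In ICB tumors it was at 8.28, 5.51, 5.25, 6.06 and 7.29, in 5-FU tumors at 3.04, 3.67, 3.61, 3.76 and 4.27 and in 5-FU+ICB tumors at 4.28, 1.80, 2.92, 3.03 and 4.50. With -2.54 ± 0.27 after 5-FU+ICB it had the largest decrease of the 34 genes in that comparison. The calls of Tm7sf2 and Mvd after ICB were lost when the same ICB and PBS tumors were fitted within the cisplatin matrix. Msmo1, the sterol methyl oxidase, had 199, 192, 156 and 129 CPM in PBS tumors. Its values were 77.1, 41.3, 43.4, 70.4 and 80.7 with ICB, 30.4, 52.6, 35.7, 40.5 and 50.5 with 5-FU and 33.2, 38.8, 40.1, 29.6 and 49.9 with 5-FU+ICB. All 15 treated tumors were below all PBS tumors.

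Nsdhl, the decarboxylating sterol dehydrogenase, works in the same demethylation as Msmo1. It stood at 95.5, 92.9, 85.4 and 69.5 CPM in PBS tumors, 41.1, 24.8, 30.8, 36.6 and 42.4 with ICB, 19.6, 29.2, 25.4, 23 and 25.7 with 5-FU and 26.2, 28.9, 26.7, 19.6 and 39.2 with 5-FU+ICB. Hsd17b7, the keto-reductase of that step, had 32.4, 29.9, 36 and 30.6 CPM in PBS tumors, 15.5, 9.05, 8.57, 12 and 16.1 with ICB, 9.89, 11.1, 7.44, 13.2 and 12.8 with 5-FU and 7.48, 10.6, 9.0, 6.68 and 11.1 with 5-FU+ICB. Both genes separated treated from PBS tumors in the 3 comparisons. Sc5d, which adds the ring double bond, and Dhcr7, the last reductase, were also called lower in each, Dhcr7 by less (-0.58, -0.79 and -0.84). Lbr, a lamin B receptor with sterol reductase activity, was called lower after ICB alone at -0.65 ± 0.18, and had -0.41 ± 0.18 after 5-FU and -0.25 ± 0.18 after 5-FU+ICB. Ebp, the sterol isomerase, was called in none of the 3, with -0.19 ± 0.20, -0.54 ± 0.20 and -0.04 ± 0.20. After 5-FU the adjusted p of Ebp was 0.0585 by edgeR, just outside the threshold. The smallest called change of a sterol enzyme, just beyond the fold limit, was that of Dhcr7 after ICB.

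**Figure D3:**
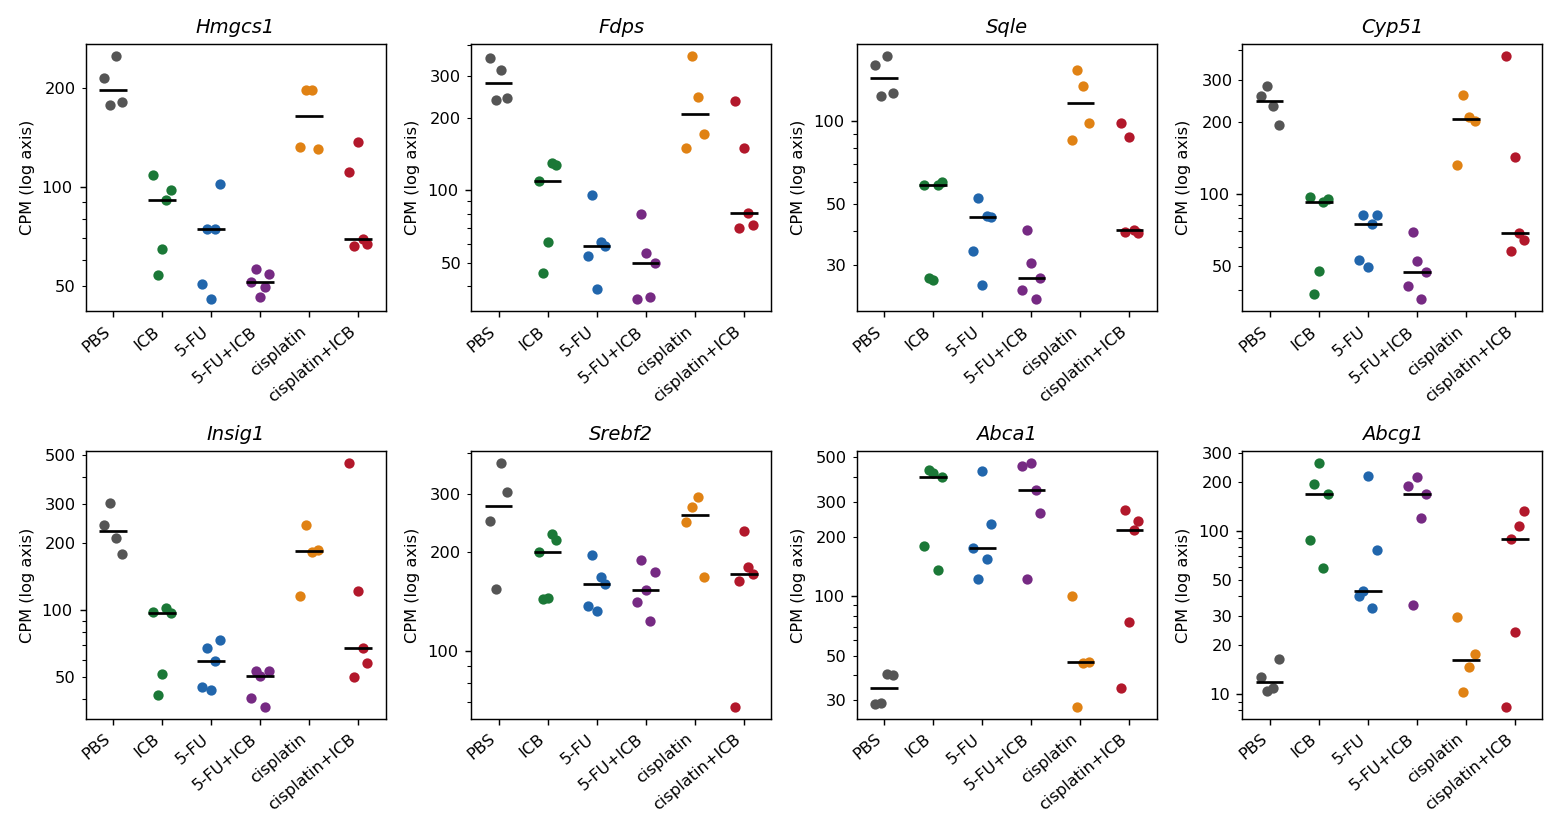
CPM per tumor (points, log axis) of 8 genes in the 6 groups, with the group median as a line. Hmgcs1, Fdps, Sqle, Cyp51 and Insig1 are low in the ICB, 5-FU and 5-FU+ICB tumors, Abca1 and Abcg1 are high there, and 1 cisplatin+ICB tumor lies at PBS levels or above for Cyp51 and Insig1.

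Of the 5 SREBP regulators, Insig1 fell most. Insig1 is itself an SREBP target, and its protein retains SCAP when sterol is plentiful. It had 241, 303, 212 and 179 CPM in PBS tumors, 98.3, 41.8, 51.7, 102 and 97.4 with ICB, 45.2, 67.5, 44, 59 and 73.6 with 5-FU and 40.4, 53.6, 50.9, 37 and 53.4 with 5-FU+ICB. The groups did not overlap with PBS, and the log2 fold changes were -1.57 ± 0.26, -2.02 ± 0.26 and -2.31 ± 0.26 (adjusted p = 4.47e-04, 4.10e-04 and 3.51e-05 by edgeR). Srebf2, which encodes SREBP-2, had 248, 154, 372 and 305 CPM in PBS tumors. It had 200.4, 144, 145, 228 and 217 with ICB, 137, 195, 132, 168 and 159.7 with 5-FU and 141, 189, 153, 124 and 173 with 5-FU+ICB. It fell after 5-FU (-0.74 ± 0.20) and 5-FU+ICB (-0.75 ± 0.20) and did not pass after ICB (-0.49 ± 0.20, adjusted p = 0.0544 by edgeR), and the lowest PBS tumor was inside the range of each treated group. The call after 5-FU was lost with no filter on low counts (adjusted p = 0.0607 by edgeR) and with all 6 groups in 1 fit (0.0803), and the difference between the 5-FU and ICB effects was not tested. Srebf1, which encodes SREBP-1, had 122, 82.7, 167 and 157 CPM in PBS tumors, 104, 119, 95.8, 140.2 and 112 with ICB, 138, 155, 119, 152 and 122 with 5-FU and 103, 167, 141, 101 and 88 with 5-FU+ICB. Its log2 fold changes lay between -0.16 and 0.08 and none passed. Scap and Insig2 did not pass either, with values between -0.17 and 0.27 for Scap and between -0.17 and -0.13 for Insig2. Stard4, a cytosolic carrier of cholesterol, was called lower after ICB (-0.69), 5-FU (-1.43) and 5-FU+ICB (-1.0).

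Of the 5 fatty acid synthesis genes, 1 was called lower after ICB, 1 after 5-FU and 2 after 5-FU+ICB, and none higher. Acly makes cytosolic acetyl-CoA from citrate, Acaca and Fasn build palmitate, Elovl6 lengthens it and Scd1 desaturates the product. Acaca, Fasn and Scd1 were called in none of the 3 comparisons. Fasn had 129, 68, 529.5 and 307 CPM in the 4 PBS tumors, and this span took in every tumor of the 3 treated groups. Its log2 fold changes were -0.25 ± 0.42 after ICB, 0.47 ± 0.42 after 5-FU and 0.10 ± 0.42 after 5-FU+ICB. For Scd1 they were -0.24 ± 0.41, 0.61 ± 0.41 and 0.90 ± 0.42, the last being 0.15 without 5-FU+ICB replicate 5. Acly was called lower after 5-FU (-0.56) and 5-FU+ICB (-0.53), and Elovl6 after ICB (-0.85) and 5-FU+ICB (-0.93). Elovl6 after 5-FU was just outside (-0.74 ± 0.28, adjusted p = 0.063 by edgeR). The highest Scd1 value of the 28 tumors was 1201 CPM, in 5-FU+ICB replicate 5, where the 6 adipocyte markers summed to 588 CPM, also the highest, and the part of that in the Scd1 value was not tested. The mean level over the 5 genes was 7.23 ± 0.66 log2 CPM in PBS, 6.88 ± 0.21 with ICB, 7.34 ± 0.25 with 5-FU and 7.11 ± 0.38 with 5-FU+ICB (SD).

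Among these genes Fasn and Acaca have the longest transcripts (10050 and 9513 bases), and their level moved with the length index. In PBS tumors Fasn was lowest in replicate 2 (index -1.10) and highest in replicate 3 (index 0.86). The index was between 0.74 and 1.12 in ICB tumors and between 0.68 and 1.15 in 5-FU tumors. It thus differed in part with treatment, and a fit with the index cannot fully separate the index from treatment. In cisplatin+ICB replicate 1 (index -2.62), Fasn was at 17.3 CPM and Acaca at 10.2 CPM, while the other 4 tumors of that group had at least 176 CPM of Fasn and at least 91.2 CPM of Acaca. With the index as a covariate, chosen after seeing the data, the ICB changes became -0.91 ± 0.21 for Acaca, -0.91 ± 0.31 for Fasn and -0.54 ± 0.15 for Srebf1, which were then called lower, together with Acly (-0.60) and Srebf2 (-0.73). Mvd, Lbr, Dhcr7 and Stard4 then had no call after ICB, so that 25 members were called, 20 of them also without the covariate, beside 39.9% of all genes. After 5-FU the same 24 members were called with and without it (10.0% of all genes with it). After 5-FU+ICB, where 43.3% of all genes were called, the 25 were kept and Acaca was added (-0.53 ± 0.20). Abca1, with a transcript of 10262 bases, had 3.30, 2.82 and 3.37 under the covariate in these comparisons.

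**Figure D4:**
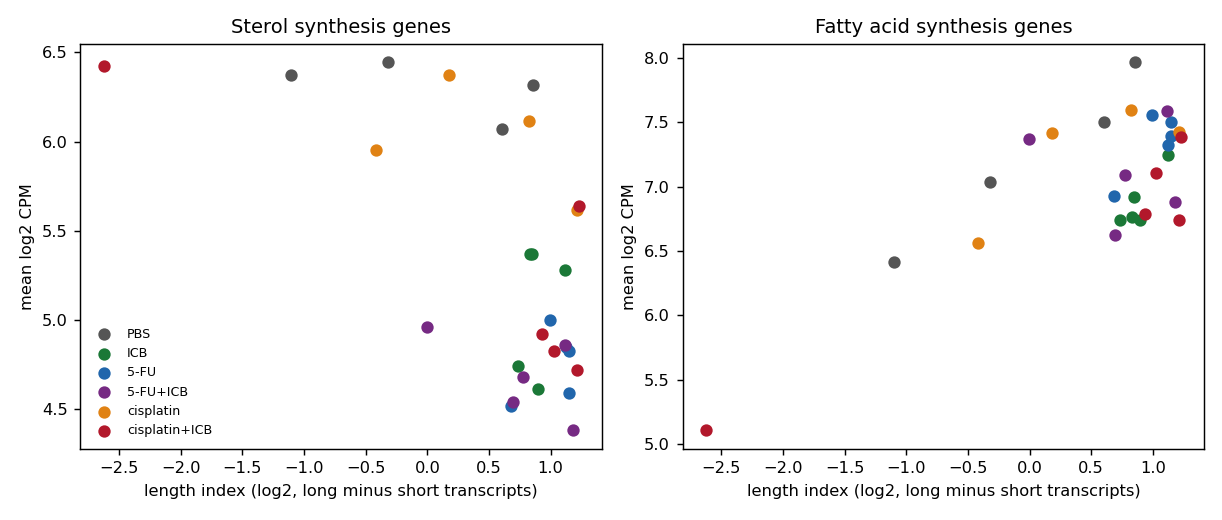
Mean log2 CPM of the 20 sterol synthesis genes (left) and the 5 fatty acid synthesis genes (right) against the transcript length index of each of the 28 tumors, colored by group. The cisplatin+ICB tumor at -2.62 has the lowest fatty acid level (5.11) and a sterol synthesis level (6.43) like that of PBS tumors.

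All 3 genes that lower the sterol content of a cell were higher after ICB, 5-FU and 5-FU+ICB. Abca1, which loads cholesterol onto lipid-poor apolipoprotein, had 28.7, 28.9, 40.6 and 39.9 CPM in PBS tumors. It had 179, 432, 416, 136 and 397 with ICB, 175, 122, 429.7, 154 and 232 with 5-FU and 455, 123, 467, 342 and 264 with 5-FU+ICB. The lowest of these 15 tumors had 122 CPM and the highest PBS tumor 40.6, and the log2 fold changes were 3.21 ± 0.47, 2.71 ± 0.46 and 3.30 ± 0.47. Abcg1, which passes cholesterol to mature lipoprotein particles, had 12.7, 10.5, 11 and 16.5 CPM in PBS tumors. It had 87.8, 193, 259, 59.2 and 168 with ICB, 40.1, 42.9, 216, 34 and 76.1 with 5-FU and 187, 35.1, 215, 120.3 and 167 with 5-FU+ICB. The rise was 3.63 ± 0.64 after ICB, the largest change of any member in any of the 10 comparisons of groups, and the 5-FU value of 2.71 ± 0.61 was 1.94 without replicate 3, at 216 CPM. Mylip, an E3 ligase that sends lipoprotein receptors to the lysosome, had 14.8, 19.2, 16.9 and 18.4 CPM in PBS tumors, 34.8, 59.6, 62.1, 25.2 and 50.4 with ICB, 35.4, 31.9, 65.6, 27 and 38.9 with 5-FU and 48.7, 28.8, 57.3, 39.8 and 52 with 5-FU+ICB. It rose by 1.45, 1.21 and 1.41 on the log2 scale. Over the 3 genes the mean level was 4.28 ± 0.18 log2 CPM in PBS tumors (SD), 6.89 ± 0.73 with ICB, 6.29 ± 0.75 with 5-FU and 6.88 ± 0.73 with 5-FU+ICB.

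Leukocyte genes moved with these results. Of 8 macrophage markers, 8 were called higher after ICB, 3 after 5-FU and 5 after 5-FU+ICB, and their summed level went from 1395 to 2127 CPM in PBS tumors to 2926 to 7932 with ICB, 1867 to 6358 with 5-FU and 1525 to 6735 with 5-FU+ICB. Of 4 general leukocyte markers 3, 1 and 4 were called higher, and of 5 T cell markers 5, 3 and 5. Of 6 proliferation markers, 4, 2 and 4 were called lower. The 4 mesothelial markers with counts, of 7 on the list, summed to between 273 and 361 CPM in PBS tumors, 54.8 and 218 with ICB, 46.9 and 178 with 5-FU and 37.8 and 169 with 5-FU+ICB, though 0, 0 and 1 of them were called lower. These sums were mostly Msln in every tumor but 5-FU+ICB replicate 5. The mean log2 CPM over the same markers overlapped between groups. It was between 0.90 and 1.72 in PBS tumors, 0.49 and 1.75 with ICB, 0.45 and 1.29 with 5-FU and 0.78 and 2.37 with 5-FU+ICB. Of the sebaceous gland markers 4 of 5 passed the filter on low counts in the 5-FU fit and 3 in the cisplatin fit, and of the keratinocyte markers 3 of 5, and none was called. Both sums were highest in ICB replicate 2 (82.0 and 449.9 CPM). Of 5 skeletal muscle markers none was called in any comparison, though they summed to between 101 and 167 CPM in PBS tumors, 1.60 and 3157 with ICB, 7.90 and 1307 with 5-FU and 2.35 and 4357 with 5-FU+ICB. Of 6 adipocyte markers 0, 0 and 1 were called higher, of 4 endothelial markers 1, 2 and 4, of 5 neutrophil markers 2, 1 and 1, and of 4 B cell markers 0, 0 and 3. Over all genes, 19.0%, 9.98% and 21.9% were higher and 18.8%, 13.0% and 18.7% lower, and a count near these shares is no result about a list. The part of cell composition, muscle included, in the sterol and efflux values was not tested.

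**Figure D5:**
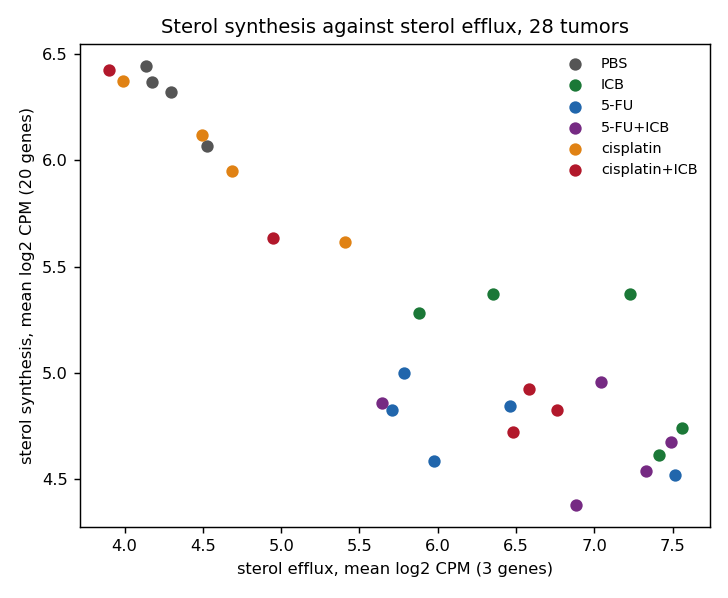
Mean log2 CPM of the 20 sterol synthesis genes against that of the 3 efflux genes in each of the 28 tumors, colored by group. PBS and most cisplatin tumors sit at the upper left, ICB, 5-FU and 5-FU+ICB tumors at the lower right, and cisplatin+ICB tumors reach across both.

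Within groups the tumors did not follow a strict opposite order. The tumor highest in efflux was lowest in sterol synthesis in 3 of the 6 groups (PBS, 5-FU and cisplatin), and the tumor lowest in efflux was highest in sterol synthesis in 3 (PBS, cisplatin and cisplatin+ICB). The tumor highest in efflux also had the highest mean level of macrophage markers in 4 groups (ICB, 5-FU, cisplatin and cisplatin+ICB), and the tumor lowest in efflux had the lowest in 5 groups, all but PBS. Sterol synthesis minus efflux was between 1.54 and 2.31 on the log2 scale in PBS tumors. It was between -2.82 and -0.60 with ICB, -3.00 and -0.78 with 5-FU, and -2.81 and -0.78 with 5-FU+ICB.

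After cisplatin alone no member passed. At an unadjusted p under 0.05 the count was also 0 of 34, and 1.78% of all 17819 genes reached that p in edgeR's test. DESeq2's Wald test also called 0 members. The median log2 fold change of the sterol enzymes was -0.27. Sqle had 85.3, 153, 134 and 98.3 CPM, Cyp51 133, 259.8, 209.6 and 202 and Insig1 117, 243, 184 and 188 in the 4 cisplatin tumors, and each range overlapped with PBS, as did that of all 34 members, while 3.44% of all genes did not overlap. Cisplatin replicate 1 was lowest for all 3 and highest for Abca1, whose values were 101, 27.8, 46.2 and 46.8 CPM. Abcg1 had 29.6, 10.3, 14.7 and 17.7 CPM and Mylip 25.4, 13.8, 16.8 and 20.6. The Abca1 difference from PBS was 0.69 ± 0.55 (SE), and the standard errors of the 34 members in this comparison lay between 0.17 and 0.67 on the log2 scale.

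In cisplatin+ICB tumors the count of calls depended on which tumors were kept. Sqle had 98.3, 39.7, 87.8, 40.4 and 39.2 CPM, Fdps 234, 69.5, 151, 81 and 71.8 and Hmgcs1 111, 66.3, 137, 69.4 and 67 in replicates 1 to 5. Cyp51 had 377, 58.1, 143, 69 and 64.7 CPM, Msmo1 286, 47.5, 89.7, 52.5 and 48.8 and Tm7sf2 57.5, 4.85, 9.31, 6.37 and 5.48. Replicate 1, the library with the low length index, was above the PBS range for Cyp51, Msmo1 and Tm7sf2, and replicate 3 was the highest of the other 4 for all 6 genes. Insig1 had 458, 49.9, 123, 67.9 and 58.3 CPM and Srebf2 67.9, 163, 232, 179.6 and 171. Replicate 1 was the highest for Insig1 and the lowest for Srebf2. Abca1 had 34.4, 271, 74.3, 215 and 239 CPM, Abcg1 8.43, 89.9, 24.2, 108 and 132 and Mylip 11.3, 29.2, 16.1, 38 and 40.7, with replicates 1 and 3 the lowest of each. With all 5 tumors, Hmgcs1 (-1.17), Sqle (-1.24), Lss (-1.19), Hsd17b7 (-1.18), Dhcr7 (-0.81) and Stard4 (-0.80) were called lower than in PBS, and Abca1 (2.29) and Abcg1 (2.53) higher. Stard4 was just inside the threshold and Sc5d and Elovl6 just outside it, with adjusted p-values of 0.0484, 0.0525 and 0.0528 by edgeR. Leukocyte markers moved here too. Macrophage markers summed to between 1801 and 3259 CPM (1395 to 2127 in PBS), with 2 of 8 called higher. General leukocyte markers summed to between 717 and 1709 (448 to 585 in PBS), with 2 of 4 called higher. T cell markers summed to between 27.0 and 197 (16.5 to 29.2 in PBS), with 4 of 5 called higher. Neutrophil markers summed to between 35.1 and 107 (9.32 to 18.5 in PBS). The part of these markers in the sterol and efflux values was not tested. The tumors did not overlap with PBS for 8 of the 34 members, against 8.12% of all genes.

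Without that library 25 members were called against PBS (3 higher and 22 lower), beside 35.3% of all genes. The sterol enzymes then had 19 of 20 called lower, with a median of -1.22, and Mylip was called higher (0.92 ± 0.31). Cyp51 went from -0.76 ± 0.47 to -1.48 ± 0.33, and Tm7sf2 from -0.20 ± 0.58 to -1.52 ± 0.27. Acaca, Fasn and Scd1 remained without a call. Against cisplatin alone, cisplatin+ICB gave 0 calls among the members with all 5 tumors (11 at an unadjusted p under 0.05, 14.2% of all genes; DESeq2 called 3, beside 4.20% of all genes) and 18 without that library (2 higher and 16 lower; 11.9% of all genes). With replicate 1 kept, the count against PBS was 10 without cisplatin+ICB replicate 3 (8.91% of all genes), 1 without replicate 2, 4 or 5 (1.40% to 2.04%), 4 without PBS replicate 2 (4.35%) and 0 without PBS replicate 1, 3 or 4 (0% each). Against cisplatin it was 5 without cisplatin+ICB replicate 3 (3.04% of all genes) and 0 without any other tumor. The groups did not overlap for 1 member there, Hsd17b7 (-1.11 ± 0.27), against 3.35% of all genes. Against ICB alone, cisplatin+ICB had 0 calls with and without that library (2 members, and 15.9% of all genes, at an unadjusted p under 0.05; DESeq2 called 0). These were Tm7sf2 (1.36 ± 0.56) and Mylip (-0.78 ± 0.32), which were at 0.03 ± 0.25 and -0.55 ± 0.29 without that library, and all 34 members overlapped between the groups, while 1.48% of all genes did not.

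The 2 chemotherapies were compared directly in a fit of all 6 groups. Of the 34 genes, 10 were lower after 5-FU than after cisplatin and none was higher, while 0.362% of the 18521 genes tested were called (0.0918% higher, 0.270% lower). The sterol enzymes among them were Hmgcs1, Mvd, Fdps, Fdft1, Sqle, Lss, Nsdhl, Hsd17b7 and Sc5d, with log2 differences between -1.91 (Fdps) and -1.23 (Sc5d), and Stard4 made the tenth (-1.22). Hsd17b7 had the smallest adjusted p (0.0125 by edgeR), at -1.49 ± 0.26. Between these chemotherapies there was no overlap of tumors for 22 of the 34 genes, against 12.5% of all genes. Abca1 (2.01 ± 0.54) and Abcg1 (2.18 ± 0.67) were among these but did not pass, Abcg1 being at 1.42 without 5-FU replicate 3 (adjusted p = 0.0885 and 0.125 by edgeR). Leaving out cisplatin replicate 2 or replicate 3 left 0 of the 10 calls, leaving out 5-FU replicate 3 left 2, 5-FU replicate 4 or 5 left 3 and cisplatin replicate 4 left 6, while the share of all genes called went down to between 0.00528% and 0.157% in these 6 fits. Without the 3 libraries that stand apart, all 10 were kept and 23 were called in all, beside 11.3% of all genes.

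Adding ICB to 5-FU, or 5-FU to ICB, gave no call in the set. Against ICB alone, 5-FU+ICB had 0 members called (0.229% of all genes called, 0.0670% higher and 0.162% lower). At an unadjusted p under 0.05 there were 13, beside 10.9% of all genes, and DESeq2 called 1, beside 1.68%. Tm7sf2 differed by -0.97 ± 0.25 there and Scd1 by 1.15 ± 0.39, but without 5-FU+ICB replicate 5, at 1201 CPM, Scd1 differed by 0.39 ± 0.22. The members called were also 0 without that tumor, and 1 member, Tm7sf2, did not overlap, against 2.33% of all genes. Against 5-FU alone 0 were called (0.0112% of all genes called; 2 members and 16.6% of all genes at an unadjusted p under 0.05; groups without overlap made up 1.42% of all genes and 1 member, Mvd), with Mvd at 0.62 ± 0.20 and Ebp at 0.50 ± 0.19, or 0.40 and 0.34 without 5-FU+ICB replicate 5, and DESeq2 called 0, beside 2.97% of all genes. The interaction, the effect of 5-FU in ICB-treated tumors minus its effect in the others, was above 0 for all 20 sterol enzymes, with a median of 1.17. It passed for Pmvk (1.19 ± 0.22) and Nsdhl (1.48 ± 0.26), both at an adjusted p of 0.0484 by edgeR, while 0.0893% of all genes passed (0.0112% higher, 0.0781% lower). Leaving out 1 tumor moved these 2 calls to 15 (PBS replicate 3 or 4; 9.27% and 5.56% of all genes), 16 (5-FU+ICB replicate 4; 5.35%), 4 (5-FU replicate 4; 0.456%) or 0 (any other tumor; at most 0.0450%). The efflux genes had interactions of -2.63 ± 0.59 for Abca1, -2.79 ± 0.79 for Abcg1 and -1.24 ± 0.39 for Mylip, which did not pass. DESeq2 called 20 members for this interaction, beside 9.57% of all genes. The interaction of cisplatin with ICB was called for 0 members by edgeR and by DESeq2 (1 member, Abca1, and 7.14% of all genes had an unadjusted p under 0.05 by edgeR), and the median of the sterol enzymes was 0.68, or 0.24 without cisplatin+ICB replicate 1.

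Genes around the pathway were followed in 4 lists of 53 genes. Of 18 genes of sterol handling, oxysterols and LXR, 9 were higher after ICB, 2 after 5-FU, 7 after 5-FU+ICB and 1 after cisplatin+ICB, and none lower. Of all genes tested, 19.0%, 9.98% and 21.9% were higher and 18.8%, 13.0% and 18.7% lower in the first 3 comparisons, and 4.70% and 1.40% after cisplatin+ICB, and a list whose share lies near these shows no result of its own. After ICB the largest were Cyp27a1 (2.45 ± 0.58), the sterol 27-hydroxylase, Lipa (1.98 ± 0.53), the lysosomal acid lipase, and Cyp7b1 (1.88 ± 0.61), an oxysterol hydroxylase. After 5-FU they were Cyp7b1 (2.76 ± 0.63) and Gramd1b (1.35 ± 0.28), a sterol transporter. After 5-FU+ICB they were Cyp7b1 (3.32 ± 0.65), Nr1h3 (2.20 ± 0.57), which encodes LXR alpha, and Gramd1b (1.90 ± 0.29). Several of these genes are also expressed by macrophages. Of 16 other genes of fatty acid and glycerolipid synthesis, 1 was higher and 3 lower after ICB, 2 and 4 after 5-FU, and 2 and 5 after 5-FU+ICB. Those lower included Fads2 after ICB (-1.10 ± 0.31) and Slc25a1, the citrate carrier, after 5-FU (-0.82 ± 0.13), and Dgat2 was higher in all 3 (2.13, 2.44 and 2.71). Of 12 genes that use isoprenoids, Fnta, a subunit of farnesyltransferase, was lower after ICB (-0.87), 5-FU (-0.76) and 5-FU+ICB (-0.86), with 3, 1 and 3 called lower in all. Of 7 genes of SREBP processing and sterol-driven degradation, Syvn1 was higher after ICB (0.51) and 5-FU+ICB (0.63), and Erlin1 lower after 5-FU (-0.56) and 5-FU+ICB (-0.71).

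Some rows may share reads with a neighbour. Exons of Hmgcs1, Idi1, Ggps1, Fdft1, Lss, Cyp51, Lbr, Srebf1, Scap and Elovl6 overlap a gene on the opposite strand in GENCODE M21 (Ctsb for Fdft1, Akap9 for Cyp51), and it was not stated whether the counting used strand. Fdps, Tm7sf2, Lbr and Srebf1 overlap a gene on their own strand (Gm43738, Vps51, Gm26004 and Mir6922). Acat2, Idi1 and Scd1 have close paralogs (Acat3, Idi2 and Scd2), so their counts carry that uncertainty.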

How the data were processed

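RNA from 28 whole AB1-HA tumors was sequenced, and per the labels and the study's methods the authors made reads with bcl2fastq 2.20.0.422, pseudoaligned them with kallisto 0.46.0 (GRCm38, also given as mm10) and deposited estimated counts per gene in 2 matrices, for 5-FU and for cisplatin. The 9 PBS and ICB tumors have identical values in both and were counted once. Of the values, 23.7% were not whole, and counts were rounded. Kit strandedness is not given in the sources used here. Genes were filtered with filterByExpr, scaled with TMM and tested with edgeR 4.0.16 (R 4.3.3, limma 3.58.1), with the 4 groups of a matrix in 1 fit and all 6 groups for 5-FU against cisplatin. Benjamini-Hochberg adjustment covered all genes tested (17916, 17819 and 18521). DESeq2 1.42.0 was an alternative, as were another normalization, filters, a replicate block, a length covariate and leaving out tumors. CPM per tumor came from the fit of 6 groups. The scripts were tested on simulated data. Members and lists were chosen with earlier results of these data known. Values per tumor were printed for the main regulators, the efflux genes and the 16 members with the largest change in any comparison, and other pathway genes where called, up to 3 per list. Total counts of 23541733 to 33950805 per tumor limit precision through counting error only. Each tumor came from its own mouse, and the study's supplement describes the sequencing as 1 experiment, so p-values measure the spread between mice of that experiment.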

Additional observations from a re-analysis of the deposited data

Results flagged for a closer look

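Over 132 sets of group values (each gene printed per tumor and each of the 3 scores, in groups of 4 or 5 tumors), 8 held a tumor far from the others, where chance gives about 1 in 20. Of these, 6 were cisplatin+ICB replicate 1, the library with the transcript length index of -2.62. In it Tm7sf2 was at 57.5 CPM against 9.31 in the next tumor, Insig1 at 458 against 123, Cyp51 at 377 against 143, Msmo1 at 286 against 89.7 and Fdft1 at 167 against 72.3, and the mean over the fatty acid genes was 5.11 log2 CPM against 6.74. Abcg1 in 5-FU replicate 3 was at 216 CPM against 76.1, in the tumor with the highest macrophage sum of its group. Mvd in 5-FU+ICB replicate 5 was at 22.5 CPM against 13.6, in the tumor with 16.1% mitochondrial counts. The interaction of 5-FU with ICB passed for Pmvk (log2 interaction 1.19) and Nsdhl (1.48) by edgeR, both at an adjusted p of 0.0484. The call of Nsdhl was lost in 6 of its 11 alternatives. Without 5-FU+ICB replicate 5 the adjusted p was 0.0708 for Pmvk and 0.0599 for Nsdhl by edgeR, and neither passed.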

How the results depend on the processing

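The counts of members called against PBS stayed between 21 and 26 for ICB, 22 and 26 for 5-FU and 24 and 26 for 5-FU+ICB over every alternative run. After 5-FU the count of all genes called ranged from 825 to 4856 over the same alternatives. No called change of a named gene changed direction. Values without a call could, as Scd1 in 5-FU+ICB against 5-FU (0.29, and -0.47 without 5-FU+ICB replicate 5). Of the alternative values of named genes, 777 kept their side of the threshold and 47 lost it, and 120 of 120 group levels moved by less than 1 SD. Other counts moved. DESeq2 called 1 member for 5-FU+ICB against ICB, 3 for cisplatin+ICB against cisplatin, 20 for 5-FU against cisplatin and 20 for the interaction of 5-FU with ICB, beside 1.68%, 4.20%, 3.67% and 9.57% of all genes. With the transcript length covariate, added after seeing the data, the same 4 counts were 1, 15, 20 and 0 (0.781%, 7.82%, 1.35% and 0%), and cisplatin+ICB against PBS had 28 (18.8%). Without the 3 libraries that stand apart, also added later, cisplatin+ICB had 26 against PBS (25.2%) and 19 against cisplatin (17.7%), 5-FU had 23 against cisplatin (11.3%) and the interaction 0 (0%). With the compared groups alone, cisplatin+ICB against PBS had 0 (0%) and 5-FU against cisplatin 19 (5.62%). The interaction had 0 with no filter (0.0366%), 4 with at least 10 counts in every tumor (0.358%) and 0 with all 6 groups in 1 fit (0%). Leaving out 1 tumor gave 0 to 1 for 5-FU+ICB against 5-FU (1 without 5-FU+ICB replicate 2, 10.9% of all genes), 0 to 25 for cisplatin+ICB against PBS, 0 to 18 against cisplatin, 0 to 10 for 5-FU against cisplatin and 0 to 16 for the interaction. The cause of these moves was not tested. With a replicate block the counts were 24 (ICB), 26 (5-FU) and 25 (5-FU+ICB) against PBS (33.7%, 18.6% and 35.8% of all genes), and 0 for cisplatin+ICB against PBS, 5-FU against cisplatin and the interaction, but the replicate numbers are not shown to pair tumors, as in no comparison were all pairs of deviations correlated over 0.1.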
